A study of Mus musculus with 12 samples.

Results

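The genes of the cytosolic ribosomal proteins were followed in growth plate cartilage of mice with endoplasmic reticulum (ER) stress. Members were the array probes whose gene symbol is Rpl or Rps with a number (and an optional final letter a, x, l or y) or Rplp0 to Rplp2; this gave 77 genes with 128 probes, out of 27962 gene names with 41174 probes on the array. Of the 77 genes, 46 belong to the large and 31 to the small subunit of the ribosome. One probe measured 40 of the genes, 24 had 2 probes, 12 had 3, and Rpl29 had 4.

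The hypertrophic zone, the layer of enlarged chondrocytes that makes collagen X, was cut from 1 tibia of each of 12 mice aged 14 days, with 3 mice in each of 4 groups. Schmid mice are homozygous for Col10a1 p.Asn617Lys, which changes 1 residue of collagen X, and their controls were wildtype mice of the same background. The Cog group carries the transgene ColXTgcog, a misfolding thyroglobulin driven by the collagen X promoter, and was compared with wildtype mice of its own background. Hemizygous and homozygous Cog mice were not told apart by the study. Both wildtype groups were littermates without the mutation or transgene, and no group was treated. RNA was linearly amplified in 2 rounds and hybridised in 1 colour, so each value is a log2 signal of a 60-base probe after normalization of the 12 arrays.

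Ribosomal proteins are small basic proteins that fold around the ribosomal RNAs to build the particle that reads mRNA. Their subunits are assembled in the nucleolus, joined for translation by initiation factors, and moved along the mRNA by elongation factors. Most of their mRNAs begin with a C and a run of pyrimidines, the terminal oligopyrimidine or TOP motif, which lets growth and stress signalling set how much of them is translated. Hypertrophic chondrocytes secrete large amounts of matrix and therefore rely on ribosomes bound to the ER.

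The results turn on a few probes, shown here so that a reader can see what each signal reads. The probes of Rpl5, Rpl4 and Rps12 differed in their change between the mutants at an adjusted p not above 0.05, while that of Rps21 is the brightest of 3 that disagreed. Positions are those of the array's annotation on the mouse build mm7: Rpl5 at chr5:107081179-107082086, Rpl4 at chr9:64203185-64203244 and Rps21 at chr2:180758913-180759144 on the plus strand, and Rps12 at chr10:23538288-23538347 on the minus strand. The Rpl5 and Rps21 positions span more than 60 bases, as for a probe that crosses an intron. Sequences are printed in the sense of the mRNA, with no part set in capitals.
Rpl5: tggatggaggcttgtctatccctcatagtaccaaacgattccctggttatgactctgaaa
Rpl4: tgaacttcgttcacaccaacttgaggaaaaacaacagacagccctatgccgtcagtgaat
Rps12: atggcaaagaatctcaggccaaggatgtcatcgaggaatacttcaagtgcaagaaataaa
Rps21: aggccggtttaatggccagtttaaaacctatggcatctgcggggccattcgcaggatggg

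The other 2 Rps21 probes share 42 bases with each other and none of the 30-base words of the brightest, so they are not independent readings. Beyond the members, 2 probes of other gene names shared a stretch of at least 30 bases with a member probe, 1 with Rpl17 and 1 with Rpl36. Processed pseudogenes of ribosomal proteins are common in mammals, and reads of such copies cannot be told apart from the parent gene on these probes.

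What the genes share at their start sites was read from RefSeq (build GRCm38.p6), which held a start for 56 of the 77 genes. A C followed by at least 5 bases that are all C or T, on the gene's own strand and beginning within 5 bases of the annotated start, was found at the start of 24 of these 56 genes. It stood at 24 of 67 start sites of members (35.8%) and at 3352 of 32851 start sites of all genes (10.2%). The 5 examples, from members whose signals are described below, run from 15 bases before the start to 15 from it on, with capitals from that C, taken as the one nearest the start, to the end of its pyrimidines; pyrimidines just before it stay in lower case. Rps6 lies at chr4:86857353-86857382 on the minus strand, Rpl15 at chr14:18270972-18271001 on the minus strand, Rpl18 at chr7:45718056-45718085 on the plus strand, Rpl7a at chr2:26910792-26910821 on the plus strand and Rps21 at chr2:180257364-180257393 on the plus strand.
Rps6: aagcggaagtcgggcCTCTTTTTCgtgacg
Rpl15: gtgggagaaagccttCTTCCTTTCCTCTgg
Rpl18: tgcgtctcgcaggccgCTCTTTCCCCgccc
Rpl7a: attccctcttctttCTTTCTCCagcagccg
Rps21: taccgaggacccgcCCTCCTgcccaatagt

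The member probes were among the brightest on the array. Of 355 probes with a mean log2 signal of at least 17, 71 were members, and 58 of the 77 genes had such a probe. On all 12 arrays 112 member probes, of 75 genes, were well above background by the scanner's own test. The exceptions were Rpl4, above background on 8 arrays, and Rpl3l, on 10. Members made up 33 of the 79 saturated spot values of the 12 arrays, but no member probe was saturated on every array of a group. Probes named by a RefSeq mRNA had a median signal of 17.7 (107 probes), and the 21 probes with other accessions, often to unspliced or extended transcripts, had 10.5.

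Some features of the arrays go along with the groups. The share of spots well above background was 58.9% to 61.8% in Schmid, 48.0% to 59.4% in its wildtype, 39.6% to 48.1% in Cog and 41.1% to 58.5% in the Cog wildtype. The 3 Schmid arrays shared slide 1, 2 of their wildtype arrays slide 2, the third wildtype array and the 3 Cog arrays slide 3, and the Cog wildtype arrays slide 4, so slide and genotype cannot be told apart within either comparison. All 7 chondrocyte markers and all 7 hypertrophic chondrocyte markers, Col10a1 among them, were well above background on every array. Markers of other cells moved in Schmid: 3 of 7 red cell markers (Hba-a1, Hbb-b1 and Alas2) fell at least 2-fold past an adjusted p of 0.05, the summed linear signal of the list being 26100 to 70100 against 253000 to 1020000 in the wildtype, and 4 of 8 endothelial markers fell while Vwf rose (summed 8650 to 14700 against 25300 to 49700). Of the red cell markers 4 were well above background on all 12 arrays. Of the hypertrophic markers Ihh and Akp2 fell in Schmid, and Ihh in Cog (summed signal 393000 to 467000 in Schmid and 541000 to 1040000 in its wildtype). No red cell or endothelial marker passed both limits in Cog. The part of these shifts in the values below was not tested, and fewer cells of a type and less RNA per cell cannot be told apart in such tissue.

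In Schmid, the ribosomal protein genes as a family centred on their wildtype level after quantile normalization. No member probe passed both limits (limma, Benjamini-Hochberg adjusted p of 0.05 or less, and at least 2-fold), against 10.5% of all probes on the array (5.78% higher, 4.69% lower). An unadjusted p of 0.05 or less was found for 33 member probes (25.8%), against 39.3% of all probes. The median log2 fold change of the 77 genes, each by its brightest probe, was -0.01, beside -0.06 for all probes. Quantile normalization makes the distribution of every array alike, so a shift shared by many of the brightest probes would be partly removed. Under the scalings of the processed and normexp signal to the 75th percentile, the median was -0.33 and -0.084. The medians of all probes were then -0.40 and -0.35. Over the 128 probes the log2 changes ran from -0.96 to 1.45 with a median of 0.05. By mean log2 signal, the median was -0.03 over the 71 probes of at least 17, 0.15 over the 39 from 12 to 17 and 0.15 over the 18 under 12. The 95% interval of the change lay within 2-fold either way for 88 of the 128 member probes, and did so for 60.9% of all probes. Many of all probes are dim. Among probes well above background on all 12 arrays, it did so for 79 of 112 member probes and for 4723 of 12828 probes of any gene. By subunit, the median log2 change was -0.02 over the 46 large subunit genes and 0.01 over the 31 small subunit genes.

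At an adjusted p of 0.05 or less with no limit on the fold, 12 member probes were higher and 3 lower in Schmid, where 10.6% of all probes were higher and 13.3% lower. The 3 Schmid arrays lay wholly above the 3 wildtype arrays for 29 member probes and wholly below for 16, against 19.3% and 26.0% of all probes (45.3% either way). Leaving out single arrays moved the first count of 15 to 9 (without Schmid 1), 27 (without wildtype 1) and 6 (without wildtype 2), while the share of all probes went to 14.2%, 31.6% and 13.2%. Without wildtype 1, 4 probes also passed both limits: a dim Rps24 probe and a dim Rps13 probe were higher, and Rpl21 and Rpl28 lower. Genes in the next paragraphs that are outside the naming rule were named after their values were seen.

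**Figure D1:**
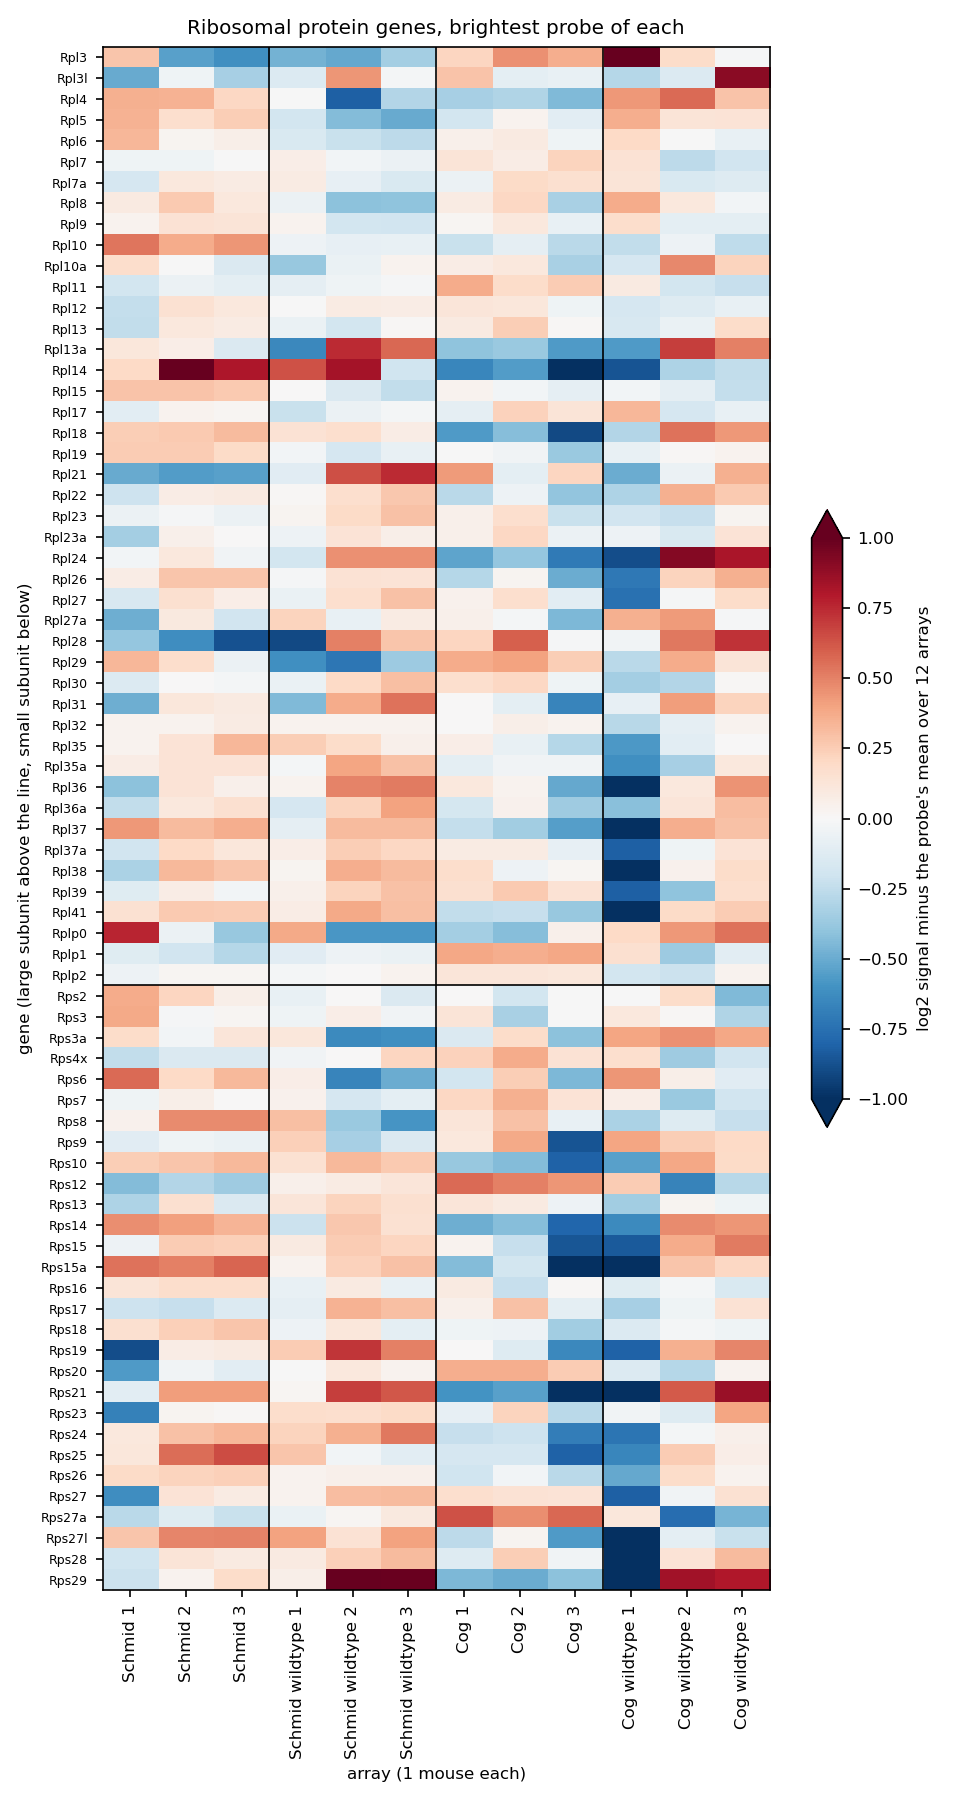
Heatmap of 74 of the 77 ribosomal protein genes (rows, brightest probe of each, large subunit above the line) on the 12 arrays (columns, 1 mouse each), with colour giving log2 signal minus the probe's mean over all arrays, cut at 1 either way. The block of blue cells at Cog wildtype 1 holds 26 genes that lay at least 0.5 below their mean.

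Among the large subunit genes, Rpl5 and both probes of Rpl10 were higher in Schmid. Rpl5 carries the ribosomal 5S RNA into the large subunit and, when not built in, binds the p53 regulator Mdm2. Its signal was 18.93, 18.75 and 18.83 in Schmid and 18.40, 18.15 and 18.08 in the wildtype, a log2 change of 0.63 ± 0.12 (SE, n = 3 per group) or 1.54-fold, with a limma adjusted p of 0.0058. The groups did not overlap. Rpl10, one of the last proteins to join the large subunit, read 18.68, 18.51 and 18.58 in Schmid against 18.09, 18.06 and 18.07 on its brighter probe, which is 1.43-fold with a limma adjusted p of 0.0057. Its second probe gave 1.34-fold (limma adjusted p = 0.010), so both readings of the gene moved alike. Neither Rpl5 nor Rpl10 lost this p when any single array was left out, but both did under the 2 scalings to the 75th percentile (adjusted p up to 0.67 for Rpl5 and 0.89 for Rpl10), which moved the median of all probes in Schmid from -0.06 to -0.40 and -0.35.

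Rpl15 and Rpl29 were also higher. Rpl15, a core protein of the large subunit, read 18.40, 18.40 and 18.38 in Schmid and 18.12, 17.97 and 17.87 in the wildtype (1.33-fold, limma adjusted p = 0.018), and lost this p without wildtype 2 or wildtype 3. Rpl29, whose loss makes mice small, was higher on 2 of its 4 probes, at 1.64-fold (adjusted p = 0.015) and 1.80-fold (adjusted p = 0.0070). The first of these was lost without Schmid 1 or wildtype 2, the second with no single array left out. Its other 2 probes gave 1.15-fold and 1.60-fold and missed the limit. Rpl6 was higher on its dimmer probe, at 17.91, 17.23 and 17.28 against 16.84, 16.55 and 16.73 (log2 change 0.77, limma adjusted p = 0.013). That p was lost without wildtype 2, and the brighter probe gave 0.35 (adjusted p = 0.052).

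Dim probes gave the remaining shifts of the large subunit. The single Rpl4 probe, well above background on 3 Schmid and 2 wildtype arrays, read 10.29, 10.28 and 10.14 in Schmid and 9.93, 9.12 and 9.64 in the wildtype (log2 change 0.68, limma adjusted p = 0.023), and lost this p without Schmid 1, Schmid 2 or wildtype 2. A dimmer Rpl23 probe was higher by 0.66 on the log2 scale (adjusted p = 0.022), while its brighter probe gave -0.21. Lower in Schmid were Rpl21, with 12.78, 12.73 and 12.74 against 13.17, 13.93 and 14.03 (log2 change -0.96, limma adjusted p = 0.024), and a dim Rpl35a probe (log2 change -0.55, adjusted p = 0.013). This Rpl21 probe is of another accession than the RefSeq mRNA, and 75% of its bases are G or C. The second Rpl21 probe, named by the RefSeq mRNA, was dimmer and gave 0.50, the opposite way, at a limma adjusted p of 0.30. The Rpl21 p was lost without any of Schmid 1 to 3, wildtype 2 or wildtype 3, the Rpl23 p without Schmid 1, Schmid 3, wildtype 2 or wildtype 3, and the Rpl35a p without wildtype 2.

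Of the small subunit genes, Rps6, the substrate of the ribosomal S6 kinases downstream of mTOR, read 16.75, 16.38 and 16.51 in Schmid and 16.25, 15.52 and 15.69 in the wildtype. This is 1.66-fold with a limma adjusted p of 0.049, and leaving out any 1 Schmid array, wildtype 2 or 3, Cog 1, or Cog wildtype 2 or 3 raised that p above 0.05 (all 12 arrays share 1 estimate of the spread). A second Rps6 probe rose above background on none of the 12 arrays and gives no fold. The dimmer of 2 Rps3a probes was higher by 0.72 (adjusted p = 0.036) and the brighter by 0.47 (adjusted p = 0.12); the first p was lost without any of Schmid 1 to 3, wildtype 1 or 2, or Cog wildtype 3. A dim Rps19 probe likewise stood above background on no array and gives no fold.

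The stalk of the large subunit, which draws elongation factors to the ribosome, did not pass the test in Schmid. Rplp0, its base, gave a log2 change of 0.36 (limma adjusted p = 0.42), Rplp1 -0.12 (0.50) and Rplp2 -0.01 (0.95). Rplp2 had one of the 3 highest mean signals of the family, as did Rpl32. The probes of Rplp2 and Rpl32 were each saturated on 1 Schmid and 1 Schmid wildtype array.

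**Figure D2:**
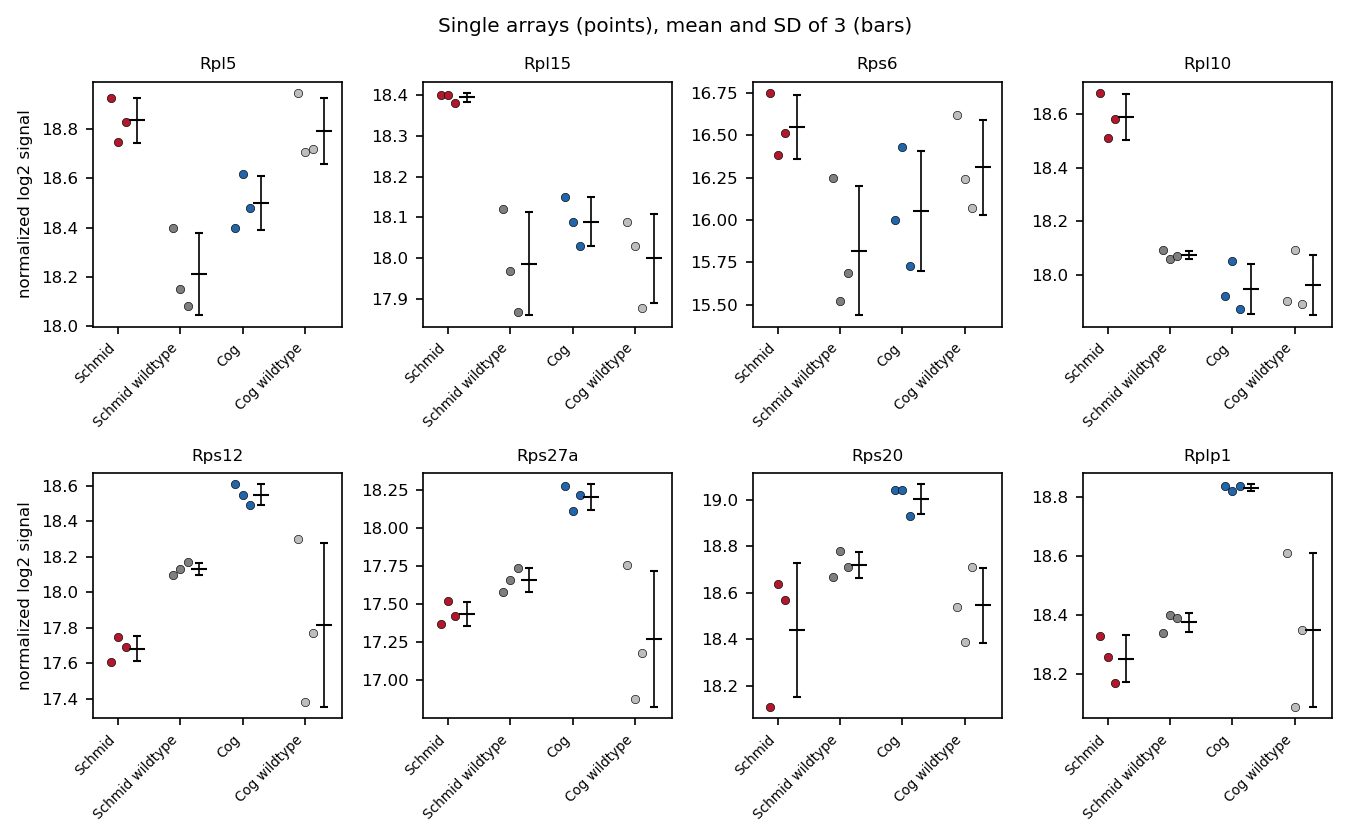
Normalized log2 signal (vertical axes, a separate range for each gene) of 8 ribosomal protein genes by group, with points for single arrays and bars for the mean and SD of 3. The Schmid points stand above those of their wildtype for Rpl5, Rpl15, Rps6 and Rpl10, and the Cog points above those of theirs for Rps12, Rps27a, Rps20 and Rplp1.

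In Cog, the family as a whole also centred on its wildtype level after quantile normalization, with the same limit. Under the scalings of the processed and normexp signal to the 75th percentile, its median was -0.17 and -0.15. The medians of all probes were then 0.43 and 0.01. The median log2 fold change of the 77 genes was -0.01, beside -0.00 for all probes. By mean log2 signal, it was 0.06 over the 71 member probes of at least 17 and 0.02 over the 18 under 12. Over the 39 from 12 to 17 it was -0.20, with 25 changes below 0 and 14 above. The 95% interval lay within 2-fold for 93 of 128 member probes, against 68.8% of all probes. Among probes well above background on all 12 arrays, it did so for 82 of 112 member probes and 6293 of 12828 probes of any gene. One member probe, to Rps21, passed both limits and was higher, and none was lower, where 2.31% of all probes passed (1.56% higher, 0.748% lower). At an adjusted p of 0.05 or less with no limit on the fold there were 4 higher and 2 lower, where 4.58% of all probes passed (2.73% higher, 1.86% lower), and 25 member probes (19.5%) had an unadjusted p of 0.05 or less, against 21.3% of all probes. The 3 Cog arrays lay above their 3 wildtype arrays for 15 member probes and below for 8, against 16.4% and 13.0% of all probes (29.4% either way).

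Much of the Cog comparison rested on a single wildtype library. On Cog wildtype 1, 26 of the 77 genes were at least 0.5 on the log2 scale below their own mean over the 12 arrays, and 9 at least 1 below. Of all probes well above background on every array, 16.3% were 0.5 below their mean there, within the 6.54% to 27.7% of the 12 arrays. On the 11 other arrays 0 to 17 genes were 0.5 below, the most on Cog 3, and of these 11 only Cog 3 had genes 1 below (2). For 25 genes Cog wildtype 1 held the lowest of the 12 values. Rps29 read 15.41 there, against 17.27 to 18.79 elsewhere. Rpl38 read 17.08, with 18.14 as the lowest of the other 11, and Rps28 17.67, with 18.66 as the lowest. The spread within the Cog wildtype group was accordingly the widest, with a median SD over member probes well above background on all arrays of 0.32, against 0.17 in Cog, 0.17 in the Schmid wildtype and 0.13 in Schmid. Over all such probes of the array the same medians were 0.30, 0.31, 0.39 and 0.19.

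Without Cog wildtype 1, 2 member probes passed both limits as higher in Cog, to Rps27a and Rpl7a, and 7 as lower, where 2.92% of all probes passed in either direction. The lower ones were both Rpl24 probes (log2 change -1.40 and -1.07), the brightest Rps21 probe (-1.45), the dimmest Rpl7 probe (-1.39), Rps29 (-1.27), Rpl18 (-1.12) and Rps14 (-1.03), with limma adjusted p from 0.0060 to 0.031. The count at an adjusted p of 0.05 or less then went from 6 to 15, while the share of all probes went from 4.58% to 4.49%. Without any other array it was 7 or fewer, at 2 without any 1 Schmid array, 1 without Cog 2, Cog 3 or Cog wildtype 3, and 0 without Cog 1 or Cog wildtype 2.

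Rps21, a small subunit protein near the mRNA exit, gave 3 different readings in Cog. Its brightest probe read 16.90, 16.96 and 16.50 in Cog and 16.10, 18.11 and 18.36 in the wildtype (log2 change -0.74, limma adjusted p = 0.42), with the wildtype values on both sides of the Cog values. The second probe read 16.97, 16.75 and 16.59 against 14.87, 15.75 and 15.88, or 2.42-fold with a limma adjusted p of 0.044. On this second probe the means were 16.77 in Cog, 16.54 in Schmid, 16.63 in the Schmid wildtype and 15.50 in the Cog wildtype. The wildtype groups differed there by 1.13 without overlap (limma adjusted p = 0.12). The dimmest, which shares 42 bases with the second, read 15.91, 15.61 and 15.38 against 13.02, 14.61 and 14.89 (2.75-fold, limma adjusted p = 0.15). All 3 were lowest on Cog wildtype 1. The call of the second probe was lost without any 1 of the Schmid, Cog or Cog wildtype arrays, or without Schmid wildtype 2, with adjusted p of up to 0.34 over the alternatives.

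**Figure D3:**
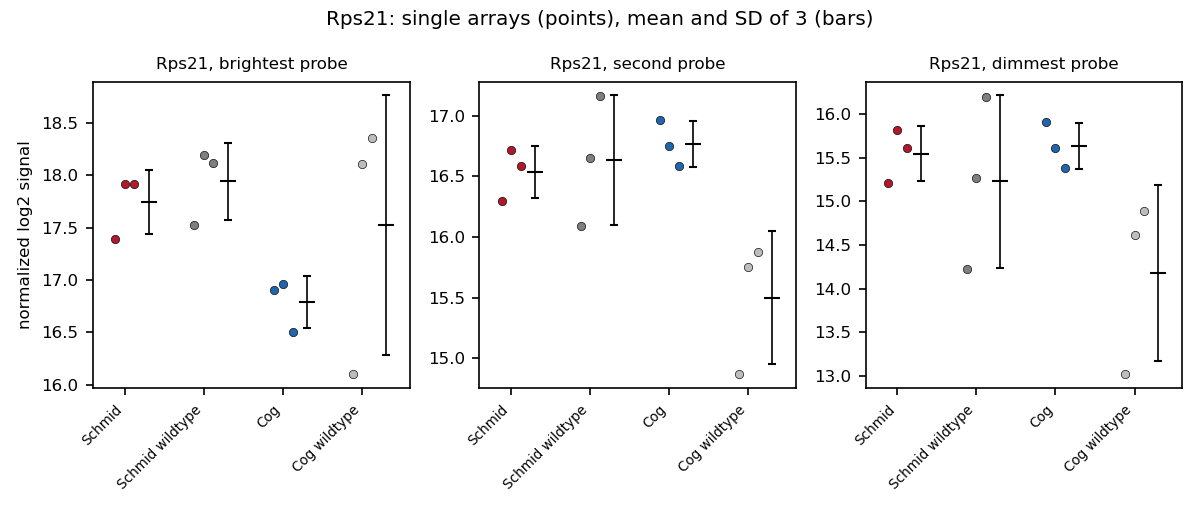
Normalized log2 signal of the 3 Rps21 probes (panels, from the brightest to the dimmest) by group, with points for single arrays and bars for the mean and SD of 3. Cog lies within the spread of its wildtype on the brightest probe and above it on the others, and the lowest point of every panel is Cog wildtype 1.

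Other Cog values stayed under 2-fold. Rps27a, made as a fusion of ubiquitin with a small subunit protein, read 18.28, 18.11 and 18.22 in Cog and 17.76, 16.88 and 17.18 in the wildtype, 1.90-fold with a limma adjusted p of 0.024. The middle of 3 Rpl7a probes gave 1.95-fold (adjusted p = 0.027), while the brightest gave 1.10-fold and the dimmest -1.21-fold. The p of Rps27a was lost without Cog 1 or 3 or Cog wildtype 2 or 3 and that of Rpl7a without any Cog array or Cog wildtype 2 or 3.

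Lower in Cog at an adjusted p of 0.05 or less were Rpl18 and Rpl4, both of the large subunit. Rpl18 read 15.63, 15.77 and 15.29 in Cog and 15.90, 16.74 and 16.63 in the wildtype (-1.82-fold, limma adjusted p = 0.041). Rpl4 read 9.60, 9.63 and 9.49 against 10.37, 10.50 and 10.22 (limma adjusted p = 0.036). Since no Cog array held its probe well above background, its change is given as a bound between the group means, 1.69-fold lower. This bound sets the wildtype mean against, on each Cog array, the higher of the probe's own signal and the lowest signal well above background. The p of Rpl18 was lost without any 1 of the Schmid or Cog arrays, Schmid wildtype 2 or 3, or Cog wildtype 2 or 3, and that of Rpl4 without any 1 of the Schmid, Cog or Cog wildtype arrays.

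The 2 mutants were compared directly by the difference between their changes, each against its own wildtype. Its median over the 77 genes was 0.07, beside -0.03 for all probes. By mean log2 signal, it was -0.07 over the 71 member probes of at least 17 and 0.06 over the 18 under 12. Over the 39 from 12 to 17 it was 0.42, with 31 above 0 and 8 below. For 9 member probes this difference passed both limits, 5 more positive in Schmid and 4 more positive in Cog, where 10.3% of all probes passed (4.38% and 5.88%). At an adjusted p of 0.05 or less there were 8 each way (6.38% and 10.2% of all probes, 16.6% in all), and 36 member probes (28.1%) had an unadjusted p of 0.05 or less, against 32.5% of all probes. More positive in Schmid were Rpl4, Rpl7, Rpl6, Rpl18 and Rps3a, 4 large subunit genes and 1 of the small subunit. More positive in Cog were Rps2, Rpl21 (a probe of another accession), Rps12 and Rps27a. The Rpl7, Rpl6 and Rps2 calls were on dimmer probes. The brightest Rpl7 probe gave -0.27 and both brighter Rps2 probes 0.26 and 0.57, the opposite way. The second Rpl21 probe gave 0.61, also opposite, while the brighter Rpl6 probe gave 0.36, the same way. The count of 9 fell to 3 without Cog wildtype 2, to 4 without Schmid 1 or Schmid wildtype 2 and to 5 without Schmid 2, Schmid 3, Schmid wildtype 3 or Cog 1, and rose to 14 without Schmid wildtype 1.

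Rpl4 differed most, by 1.47 on the log2 scale (limma adjusted p = 0.0047), and its difference kept its p under the 22 alternatives that test against no change, with adjusted p from 0.00082 to 0.049, but not when tested against a 2-fold change. Since its Cog signal is only a bound, the size of this difference is itself not fixed. The wildtype groups also differed for Rpl4, with means of 9.56 for Schmid wildtype and 10.36 for Cog wildtype, without overlap (log2 difference -0.80, limma adjusted p = 0.070). The Schmid and Cog means were 10.24 and 9.57, so the Rpl4 difference lies in part between the controls. Rps12, a small subunit protein at the tip of the particle, read 17.61, 17.75 and 17.69 in Schmid and 18.10, 18.13 and 18.17 in its wildtype, and 18.61, 18.55 and 18.49 in Cog and 18.30, 17.38 and 17.77 in the wildtype there. Neither change passed alone (limma adjusted p = 0.11 and 0.055), while the difference of -1.18 did (limma adjusted p = 0.015). Its second probe, dim and of another accession, gave log2 changes of 0.21 and 0.40.

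The p of the Rps12 difference and of the Rps27a difference (-1.15, adjusted p = 0.016) was lost under the 2 scalings to the 75th percentile. It was kept under the other alternatives with a test against no change. Tested against a 2-fold change (limma's treat), no member's difference passed. The same held for Rpl5, whose difference of 0.92 (adjusted p = 0.0070) lay just under 2-fold. Rpl5 was 18.40, 18.62 and 18.48 in Cog and 18.95, 18.71 and 18.72 in the Cog wildtype. The Cog values lay wholly below, opposite to Schmid, though the Cog change of -0.30 did not pass (limma adjusted p = 0.20). For Rpl5 the Schmid wildtype also lay wholly below the Cog wildtype (log2 difference -0.58, limma adjusted p = 0.061). Its difference between the mutants thus lies in part between the controls.

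**Figure D4:**
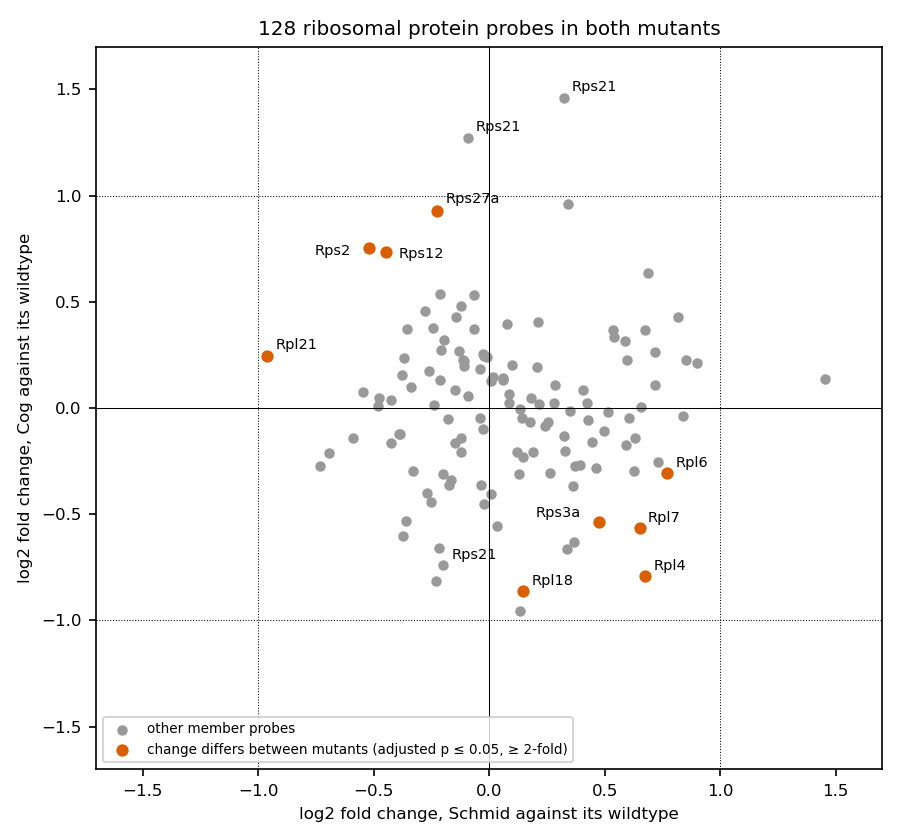
Log2 fold change in Cog (vertical) against that in Schmid (horizontal), each against its own wildtype, for the 128 ribosomal protein probes; dotted lines mark 2-fold. The 9 orange probes are those whose change differed between the mutants past both limits, and each of them lies inside the dotted lines on both axes.

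Between the wildtype groups of the 2 backgrounds no member probe passed both limits or the adjusted p alone, where 0.469% and 0.872% of all probes did (0.233% higher and 0.236% lower past both, 0.381% and 0.491% by the adjusted p alone), and 23 of the 128 had an unadjusted p of 0.05 or less, against 14.1% of all probes. The median log2 difference of the 77 genes, Schmid wildtype minus Cog wildtype, was 0.10, beside -0.003 for all probes. Of the 77, 51 were above 0 and 26 below. The median was 0.04 over the large subunit genes and 0.17 over those of the small subunit. The low Cog wildtype 1 array enters this comparison, and its part in these medians was not tested. The Schmid wildtype arrays lay wholly above those of the Cog wildtype for 12 member probes and below for 11, against 9.51% and 8.64% of all probes, and the 95% interval lay within 2-fold for 87 of 128 against 72.8% of all probes. Among probes well above background on all 12 arrays, it did so for 77 of 112 member probes and 7183 of 12828 probes of any gene.

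Paralogs with a known tissue bias gave no call. Rpl3l, the muscle form of Rpl3, was dim (well above background on 10 arrays) and gave log2 changes of -0.39 in Schmid and -0.12 in Cog, beside 0.14 and -0.05 for Rpl3. Rps27l, a p53 target, gave 0.10 and 0.20, beside -0.36 and 0.37 for Rps27. The lowest limma adjusted p among these was 0.33. Rps4x, the X-linked form, gave -0.24 and 0.38 on its brighter probe.

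The study's list of genes typical of the proliferative zone, drawn from other mice of a Swiss White stock and so not from these arrays, held 6 members. These were Rpl22, Rps3, Rpl7, Rplp0, a dim Rpl21 probe and a dim Rps24 probe. Proliferative zone chondrocytes divide, and lie just above the hypertrophic zone. None of the 10 probes of these entries passed both limits or the adjusted p in either mutant. In Schmid their log2 changes ran from -0.48 (the dimmer Rps3 probe) to 0.65 (the middle Rpl7 probe), and in Cog from -0.96 (the dimmest Rpl7 probe) to 0.25 (the brightest Rpl7 probe).

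Of 37 genes whose products assemble the ribosome, by their brightest probes, 14 rose past both limits in Schmid and none fell, where 5.78% of all probes rose. Their median log2 change was 0.82, and 8 of the 37 changes were below 0. Nol5 (Nop58), a core protein of the box C/D particles that methylate ribosomal RNA, read 16.08, 15.77 and 16.15 in Schmid and 14.46, 13.96 and 13.81 in its wildtype (log2 change 1.93, limma adjusted p = 0.00017). Nolc1, a nucleolar chaperone of such particles, changed by 2.33 (adjusted p = 0.030) and Pes1, needed for large subunit processing, by 1.72 (adjusted p = 0.0026). A second Pes1 probe rose too (8.91-fold, adjusted p = 0.0038). In Cog 3 of the 37 rose and none fell (median 0.19), where 1.56% of all probes rose: Nol5 by 1.10 (adjusted p = 0.011), Nol5a (Nop56) by 1.16 (adjusted p = 0.033) and Sdad1 by 1.45 (adjusted p = 0.022). A dimmer Sdad1 probe rose in Schmid (4.98-fold, adjusted p = 0.0019) and gave 0.62 in Cog (adjusted p = 0.36). Beside these, none of the 77 ribosomal protein genes passed both limits by its brightest probe in either mutant.

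Of 18 initiation factors 3 rose in Schmid and none fell (median 0.74), namely Eif2b1 (1.81, adjusted p = 0.0070) and Eif2s2 (1.60, adjusted p = 0.00086), of the machinery that loads the initiator tRNA, and Eif1b (1.23, adjusted p = 0.0017). None of the 18 passed both limits in Cog (median 0.12), where 2.31% of all probes did. There 3 had an unadjusted p of 0.05 or less, against 21.3% of all probes. In Schmid 5.78% of all probes rose past both limits. Of 8 elongation factors Eef2, which moves the ribosome along the mRNA, rose in Schmid (1.11, adjusted p = 0.028). Eef1a1, which brings in aminoacyl tRNAs, gave -0.22 in Schmid and 0.90 in Cog, with limma adjusted p of 0.57 and 0.089, on its brightest probe. Its other probe, also well above background on all 12 arrays, rose in Schmid, at 16.46, 15.02 and 14.59 against 14.33, 12.22 and 12.82 (4.69-fold, limma adjusted p = 0.042), and gave 0.51 in Cog (adjusted p = 0.72). The probes of Eef1a1 thus disagreed in direction in Schmid. The study treated Eef1a1 as a proliferative zone marker. By qPCR it reported far more of it in the Schmid hypertrophic zone than in the wildtype one. Its in situ hybridisation, in younger mice, showed the signal reaching through the Schmid hypertrophic zone but absent from that of the wildtype. Under 2-fold, Eef1d was lower in Schmid (-1.88-fold, adjusted p = 0.014) and Eef1b2 lower in Cog (-1.83-fold, adjusted p = 0.027); these 2 were named after their values were seen. None of the 8 passed both limits in Cog, where 3 had an unadjusted p of 0.05 or less. Of all probes 2.31% and 21.3% did so.

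Regulators of translation and ribosome production rose in part. Of 25, 8 rose past both limits in Schmid and none fell (median 0.60), led by Myc (2.93, limma adjusted p = 0.0087), which drives ribosome production, Eif2ak3 (2.50, adjusted p = 0.021), the ER stress kinase Perk that slows initiation, and Zfp598 (1.85, adjusted p = 0.0037), which marks stalled ribosomes. None passed both limits in Cog (median 0.10), where 2.31% of all probes did. An unadjusted p of 0.05 or less was found there for 6, against 21.3% of all probes. In Schmid 5.78% of all probes rose past both limits. For Myc the 3 Schmid values were 12.95, 12.63 and 12.76 and the wildtype values 11.57, 9.06 and 8.91, which did not overlap. The lower wildtype values lay near 8.95, the mean there of a dim Rps15a probe that was well above background on no Schmid wildtype array. The size of the Myc change may therefore be set in part by the background.

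The 7 ribosomal proteins or close relatives whose symbols the rule does not match, among them Fau (0.03 in Schmid, 0.18 in Cog), Rpsa (0.60 and 0.61) and Gnb2l1 (Rack1; 0.23 and 0.43), had median log2 changes of 0.14 and 0.18 by their brightest probes. An unadjusted p of 0.05 or less was found for 1 of the 7 in each mutant, against 39.3% of all probes in Schmid and 21.3% in Cog. None of the 7 passed both limits, where 10.5% and 2.31% of all probes did. A dimmer Gnb2l1 probe did pass in Schmid (2.41-fold, adjusted p = 0.030). Of 8 other genes with TOP mRNAs none passed both limits in either mutant. The median was 0.53 in Schmid and 0.05 in Cog. An unadjusted p of 0.05 or less was found for 6 in Schmid and 2 in Cog, against 39.3% and 21.3% of all probes. Npm1 (0.96, adjusted p = 0.016) and Tpt1 (0.55, adjusted p = 0.034) passed the adjusted p alone in Schmid. Of 75 mitochondrial ribosomal protein genes 3 rose past both limits in Schmid (Mrps31, Mrpl32 and Mrps22) and Mrps6 fell, with a median of 0.20. Of all probes 5.78% rose and 4.69% fell there, so these counts do not exceed the share of the array. In Cog Mrpl52 rose and Mrps25 fell, with a median of -0.14, where 1.56% of all probes rose and 0.748% fell. These lists and the members are compared by their counts and medians only.

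**Figure D5:**
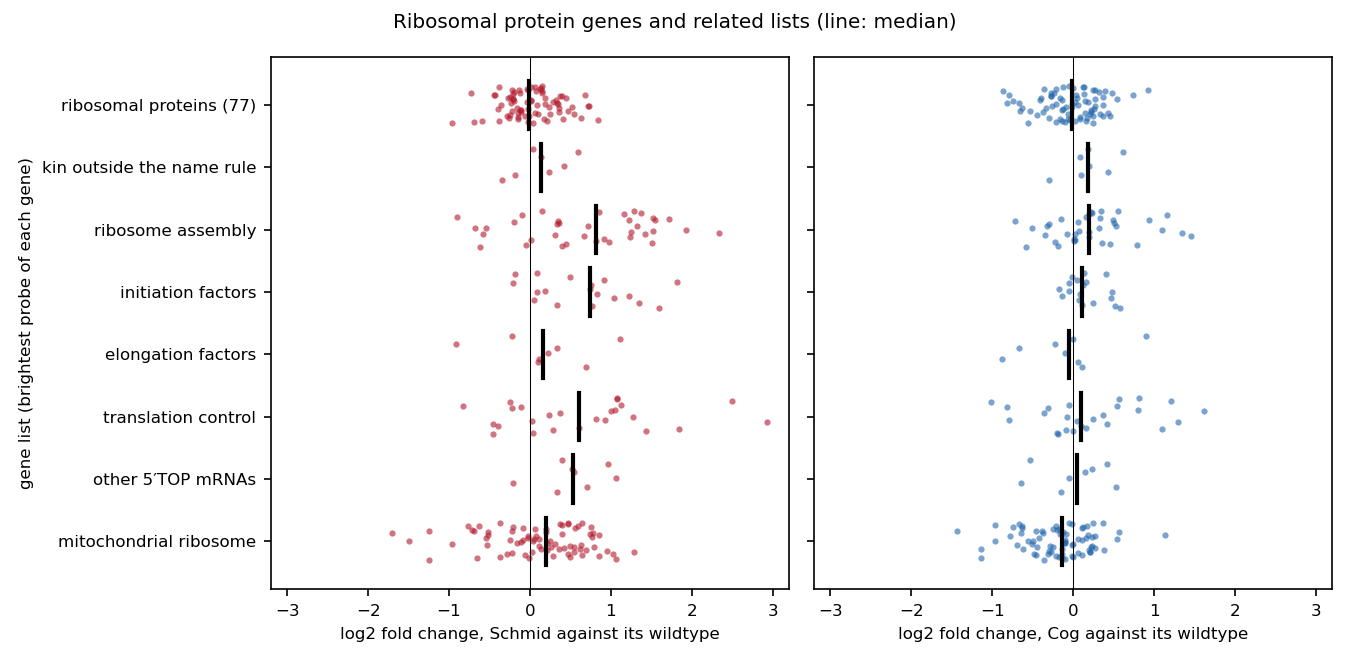
Log2 fold change (horizontal) of each gene by its brightest probe in Schmid (left) and Cog (right) for the ribosomal protein genes and 7 related lists (rows), with a line at each list's median. The ribosomal proteins centre on -0.01 in both mutants, while ribosome assembly genes centre on 0.82 in Schmid and 0.19 in Cog.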

How the data were processed

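The authors deposited scanner output with the intensity of each spot (Agilent Feature Extraction 9.5.3, 1 colour, no pooling of mice). They also deposited a matrix of log2 values after normexp correction and quantile normalization, used as an alternative. Here spot intensities were corrected with normexp (offset 50, fitted on all spots), outlier spots and then controls removed, log2 values quantile normalized over 12 arrays, and spots of a probe averaged. Arrays have no read depth; their number limits the precision. All 41174 probes were fitted with limma 3.58.1 (R 4.3.3) on 4 group means (8 residual degrees of freedom), and p-values were adjusted over all of them. The fit was tested on simulated data. A gene is shown by its brightest probe unless another is named. Replicates are single mice.

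The members and gene lists were chosen with earlier results of these data known. Named were called members (up to 8 each way per mutant, 5 each way for the difference), the 3 highest and 3 lowest signals, paralogs, proliferative zone list members, stalk genes and Rps6, and 3 called genes per further list. Markers of chondrocytes, hypertrophic chondrocytes, red cells and endothelial cells are given in the text. Of osteoblast, osteoclast, neutrophil and proliferating cell markers, 1 of 7, 0 of 6, 0 of 7 and 3 of 8 fell past both limits in Schmid, and 1 of 7, 0, 0 and 0 in Cog. Short of these limits, all 7 neutrophil markers were lower in Schmid (median log2 change -2.01) and 6 were higher in Cog (1.33). Their summed signal ran from 8720 to 429000 within the Schmid wildtype, and 2 of the 7 were well above background on all 12 arrays. The part of this in the member values was not tested. Alternatives covered signal, scaling, filter, weights, arrays fitted, replicate block, slide, position and each array left out. Several list symbols were not on the array under that name and are not analysed here, and a few members counted in the totals are not reported here by name.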

Additional observations from a re-analysis of the deposited data

Results flagged for a closer look

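A total of 9 member probes changed differently in the 2 mutants by the test of the difference itself (limma, both limits). On the log2 scale, as the Schmid change minus the Cog change, Rpl4 differed by 1.47, the middle Rpl7 probe by 1.22, the dimmer Rpl6 probe by 1.08, Rpl18 by 1.01 and the brighter Rps3a probe by 1.01. Rps2 (a dim probe of another accession) differed by -1.27, Rpl21 (also a probe of another accession) by -1.21, Rps12 by -1.18 and Rps27a by -1.15. Other probes of the same genes did not pass both limits for Rpl7, Rpl6, Rps3a, Rps2, Rpl21 and Rps12, and Rpl4, Rpl18 and Rps27a have 1 probe each. Of those other probes, the brightest of Rpl7 (-0.27), both of Rps2 (0.26 and 0.57) and that of Rpl21 (0.61) went the opposite way. The rest went the same way.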

How the results depend on the processing

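With 3 mice a group, array signal as the measure and slides that follow the groups, small shifts of single members are near the limit of what these arrays show. Under no alternative did a member past the adjusted p limit change direction. The counts past both limits were, for higher in Schmid, 2 with the processed signal quantile normalized, 2 with array weights, 1 with the replicate block, 3 with the row trend removed and 2 with the row and GC trends removed. For lower in Schmid they were 3 with the processed signal quantile normalized, 2 with that signal at the 75th percentile instead and 1 with array weights. For higher in Cog they were 2 with the processed signal quantile normalized, 0 under either 75th percentile scaling, with treat and with the own 6 arrays only, 3 with array weights, 3 with the slide as a random block, and 2 with the row trend or both trends removed. For lower in Cog the count was 2 with array weights. For a different change it was 2 with the processed signal at the 75th percentile and 0 with treat. Leaving out 1 array gave 0 to 2 higher and 0 to 2 lower in Schmid, 0 to 2 higher and 0 to 7 lower in Cog, and 3 to 14 for the difference.

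At an adjusted p of 0.05 or less the counts for Schmid, Cog and the difference were 2, 0 and 2 with the processed signal at the 75th percentile, 6, 0 and 7 with the normexp signal so scaled, 35, 18 and 35 with array weights, and 23, 14 and 33 with the slide block. The share of all probes past this limit in Cog also rose, from 4.58% to 12.4% with array weights and 13.4% with the slide block. The fitted correlation within slides was negative (-0.122) and the slides follow the groups. The higher counts with the slide block therefore cannot show that the results hold once slide is allowed for. The own 6 arrays gave 1 in Cog. Leaving out 1 array gave 6 to 27, 0 to 15 and 6 to 26. The medians became -0.33 and -0.084 in Schmid and -0.17 and -0.15 in Cog under the 75th percentile scalings of the processed and normexp signal, 0.063 in Schmid with the deposited matrix and 0.088 with both trends removed. Leaving out 1 array gave -0.03 to 0.02 in Schmid and -0.07 to 0.06 in Cog. The processed signal at the 75th percentile moved the median of all probes in Cog to 0.43.

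Same-numbered mutant and wildtype arrays did not deviate together throughout (correlation over all probes 0.193, 0.171 and 0.0660 for Schmid, -0.116, 0.0721 and -0.106 for Cog; 0.307, 0.283 and 0.117, and -0.209, 0.153 and -0.201, over probes well above background on 12 arrays), so the numbers were not taken to pair the mice, although the 3 Schmid pairs were each over 0.1 on the latter probes. The replicate block gave 1 member higher in Schmid, 1 in Cog and 8 with a difference, and 19, 3 and 10 at the adjusted p limit. The member higher in Schmid was a dim Rps24 probe (2.74-fold, adjusted p = 0.032). The block raised the adjusted p of the Rps3a, Rpl21, Rpl10, Rplp1, Rpl35a and Rps20 differences to 0.051, 0.053, 0.053, 0.063, 0.059 and 0.054, of the Rpl18 and Rpl4 changes in Cog to 0.055 and 0.054, and lowered that of the dimmer Rpl21 probe in Schmid and of the Rps21 difference to 0.044.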
